A study of Bos taurus with 40 samples.

Results

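The cytochrome P450 genes of Korean cattle were examined in the liver, the pituitary gland, the longissimus dorsi muscle and abdominal fat. The members are all gene symbols of the count tables that begin with CYP and a digit, leaving out CYP7A1, CYP8B1, CYP27A1, CYP7B1 and CYP51A1, the enzymes of bile acid and cholesterol synthesis. This rule gave 32 of the 13570 listed genes. The 40 libraries come from 10 animals, 5 cows and 5 bulls slaughtered at an age of over 22 months, each of which gave 1 library per tissue, and no animal is described as treated or genetically altered. The study asked which genes differ between the sexes in these tissues, and the same tables also allow the tissues to be compared within the same animals.

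Cytochrome P450 enzymes are heme proteins that insert an oxygen atom into their substrate, with electrons passed on by a reductase or a ferredoxin. Families CYP1, CYP2 and CYP3 are best known for oxidising drugs, plant compounds and other foreign molecules in liver, where receptors that bind such compounds switch their genes on. Family CYP4 hydroxylates fatty acids and eicosanoids, and other members build steroid hormones, activate vitamin D or break down retinoic acid. In rodents several liver P450 genes are long known to differ between the sexes under the control of growth hormone.

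Of the 32 members, 31 had at least 1 read in at least 1 library and could be tested. CYP21 had no read in any of the 40 libraries, and RefSeq lists this symbol as a synonym of CYP21A2, which was counted. CYP3A4 had 2 reads and CYP24A1 had 21 reads over all libraries, so nothing about their levels could be told at this depth. In RefSeq (assembly ARS-UCD2.0), 25 members matched by symbol and 7 by a synonym only, namely CYP21, CYP2C18 (CYP2C90 in RefSeq), CYP2C19 (CYP2C89), CYP4F2, CYP4F3, CYP3A4 and CYP3A5. CYP3A4, CYP3A5 and CYP4F2 are each a synonym of more than 1 bovine gene. Because the authors counted uniquely aligned reads, levels of the CYP2C, CYP2D, CYP3A, CYP4A and CYP4F genes, which have near-identical copies, are uncertain. Chromosome 26 holds 6 members, namely CYP2C18, CYP2C19, CYP2C87, CYP2E1, CYP17A1 and CYP26A1.

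Between 5173092 and 19165864 reads fell on genes in a library, and the median library had 10005607. Levels below are CPM, counts scaled to a common library size with TMM factors over the 40 libraries. A floor of 3 reads corresponds to between 0.132 and 0.793 CPM in a library on this scale, and it covers counting error only. They allow a gene to be compared between libraries, but not with another gene, because transcript lengths were not used. The marker genes fitted the tissue labels. The summed level of 7 hepatocyte genes was at least 120580 CPM in every liver library and at most 480 CPM elsewhere, and all 5 muscle fibre genes, all 4 adipocyte genes found in the tables and all 6 pituitary endocrine genes were highest in their own tissue.

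The library labelled male liver 3 went against its label. It had 0 reads on DDX3Y, USP9Y and ZFY, where the other male liver libraries had between 487 and 1265, and 1401 CPM of XIST, where they had at most 0.936. Its counts lay closest to those of the library of cow 4, with a variance between them of 4.38 times the sampling noise, beside 9.92 times for the next closest pair of liver libraries. In pituitary the closest pair, the libraries of cows 1 and 2, was at 4.515 times. The library labelled male liver 3 and that of cow 4 differed beyond sampling noise and were not treated as 1 library. The sex results in liver are given with and without the library labelled male liver 3. The fat library of bull 5 had 28 reads on the 3 Y-linked genes, beside 454 to 722 in the other male fat libraries, and 1.39 CPM of XIST, as low as in bulls. No member was called between the sexes in fat with or without it.

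Most P450 reads, and most detected members, were found in liver. A member was counted as detected in a tissue when at least 5 of the 10 libraries reached 1 CPM. On this rule liver had 24 of the 32 members, fat 13, muscle 12 and pituitary 10. Of all genes tested, the same rule detected 75.0% in liver, while fat had 75.4%, muscle 74.5% and pituitary 79.0%. In liver, reads on the members made up between 0.242% and 1.05% of all reads on genes, with a median of 0.695%. The median share was 0.0606% in fat, 0.0248% in pituitary and 0.00691% in muscle. There were 11 members detected in liver alone and 6 detected in every tissue: CYP20A1, CYP2D14, CYP2U1, CYP39A1, CYP4B1 and CYP4V2. These counts are of bulk tissue, where fewer cells of a type and less RNA per cell cannot be told apart.

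The members that took the most reads differed from tissue to tissue. In liver CYP2E1, which oxidises ethanol, acetone and small solvents, held a median of 38.7% of the members' reads, CYP1A2 21.3% and CYP2C19 11.5%. This order was not that of every animal. CYP2E1 led in the 5 cows and in the library labelled male liver 3, with 37.0% to 61.7%, but had 5.92% to 23.8% in bulls 1, 2, 4 and 5, where CYP1A2 led with 23.0% to 31.6%. In fat CYP2B6, a drug-metabolising enzyme, held a median of 51.6%. In pituitary CYP4V2 held 34.3% and CYP20A1 27.8%, and in muscle CYP2U1, CYP20A1 and CYP4V2 had close medians of 13.6%, 13.3% and 13.2%. Muscle libraries differed in the member that led, which was CYP4V2 in cows 1 to 3, CYP26B1 in cows 4 and 5 and bull 1, CYP4B1 in bulls 2 and 3 and CYP2U1 in bulls 4 and 5. These are shares of reads, which also depend on transcript length, and not an order of expression.

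**Figure D1:**
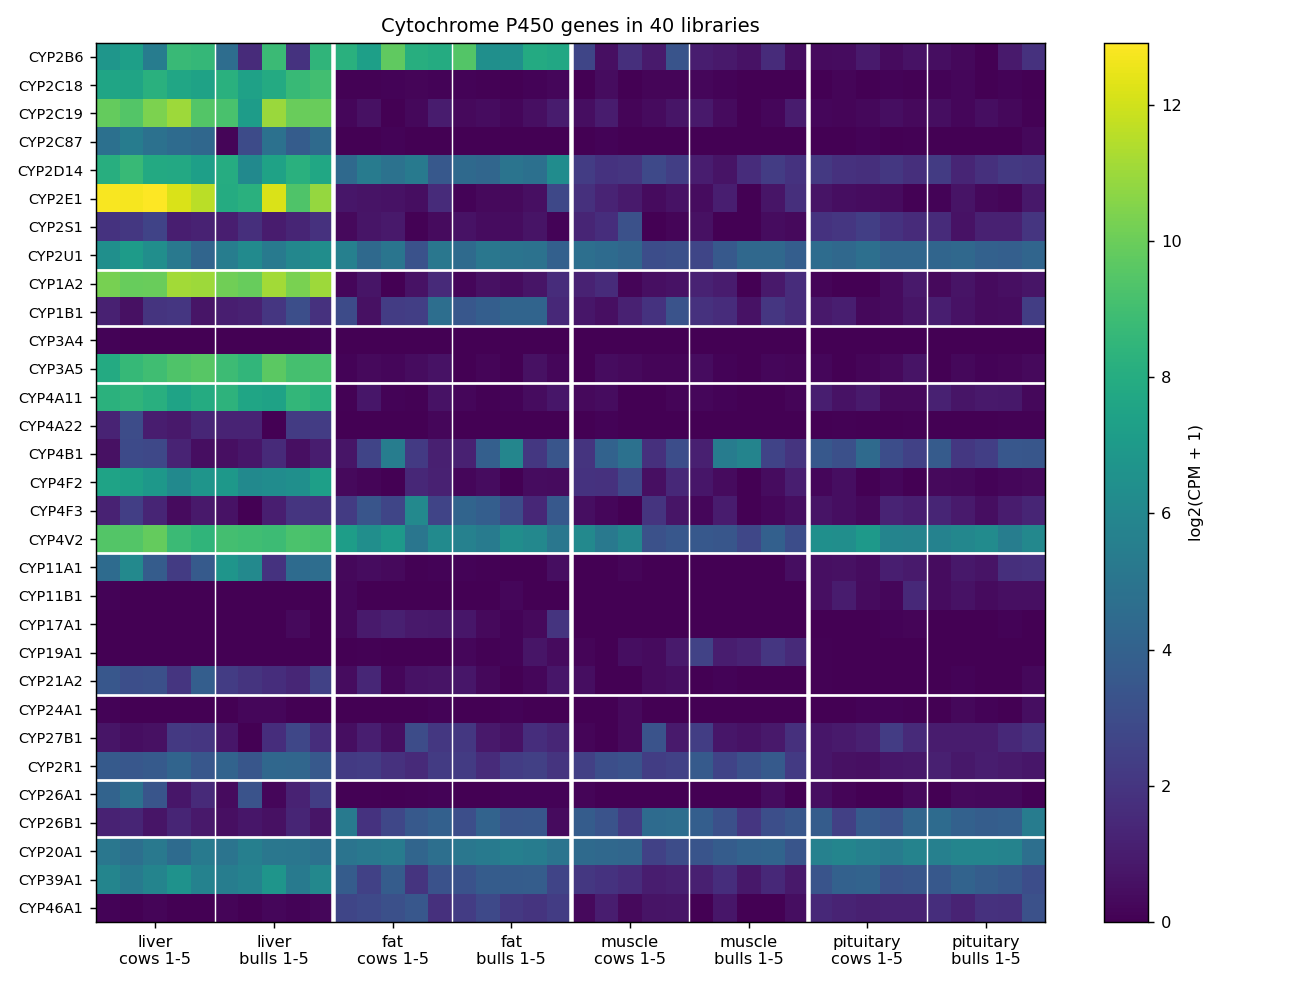
Level of the 31 tested members, as log2(CPM + 1) by colour, in each of the 40 libraries, with 5 cows and then 5 bulls in each tissue and white lines between functional groups. The 11 members detected in liver alone reach at most 6.03 CPM elsewhere, while CYP2B6 is bright in liver and in fat and CYP4V2, CYP2U1, CYP20A1 and CYP39A1 are seen in every tissue.

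Tissues were compared in a model of tissue and sex over the 40 libraries, and a member was called highest in a tissue when it was higher there than in each of the other 3 tissues at an adjusted p under 0.05 (edgeR likelihood ratio test, Benjamini-Hochberg over 13148 genes). In all, 17 of 31 members were highest in liver, where 13.7% of all genes were. A further 4 were highest in fat, beside 11.6% of all genes, 1 in muscle beside 13.1%, and 2 in pituitary beside 15.8%. The other 7 members were highest in none. For the 17 liver members, the log2 difference to the next tissue ranged from 0.97 to 11.51, with a median of 6.0. The counts were the same with the animal as a block and without the library labelled male liver 3.

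The widest gap between liver and the next tissue was that of CYP2E1, in the CYP2 family. Here 6 of 8 members were highest in liver. CYP2E1 ranged from 248 to 7697 CPM over the 10 liver libraries, with a median of 3821, and did not exceed 6.03 CPM in any of the 30 other libraries. The log2 difference between liver and fat was 11.51 ± 0.57 (SE, n = 10 libraries a tissue, edgeR adjusted p = 2.32e-38). That highest value outside liver came from the fat library of bull 5, which also had the highest hepatocyte marker sum of the fat libraries, 480 CPM beside 47.3 to 254, and the part of such RNA in the value was not tested. CYP2C19 ranged from 139 to 2042 CPM in liver and reached at most 1.0 CPM elsewhere, and CYP2C18 from 168 to 508 CPM and at most 0.346 CPM elsewhere. Both belong to the CYP2C subfamily, which oxidises drugs and arachidonic acid. CYP2C87 was lower, 0.143 to 42.3 CPM in liver, with 7 reads in all in the 30 other libraries.

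CYP2D14, a bovine gene of the drug-metabolising CYP2D subfamily, was less restricted. Its mean was 228 CPM in liver and 31.0 CPM in fat, with 3.06 CPM in muscle and 2.81 CPM in pituitary. Liver exceeded fat by 2.85 ± 0.28 on the log2 scale (edgeR adjusted p = 5.84e-20) and fat exceeded muscle by 3.38 ± 0.30 (2.53e-24), while muscle and pituitary did not differ beyond their spread (0.10 ± 0.31). CYP2U1, which hydroxylates long-chain fatty acids, spanned a narrow range from a mean of 65.3 CPM in liver to 15.0 CPM in muscle. Its liver call rested on the scaling, since library sizes alone gave an adjusted p of 0.0924 for liver against fat. CYP2S1, known mainly from tissues other than liver, stayed low, with means of 2.29 CPM in pituitary and 2.20 CPM in liver that did not differ beyond their spread (0.02 ± 0.51).

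CYP2B6 stood out from its family. Its mean was 314 CPM in fat and 193 CPM in liver, and the log2 difference of 0.70 ± 0.63 in favour of fat did not pass the test (edgeR adjusted p = 0.332). In muscle and pituitary the means were 2.31 and 0.657 CPM. The fat libraries lay between 86.6 and 864 CPM, so every fat library was above the lowest 4 liver libraries. With library sizes alone CYP2B6 was called highest in fat.

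CYP1A2, which oxidises caffeine and aromatic amines and is switched on through the AHR receptor, was found in every liver at 946 to 2263 CPM and reached at most 2.09 CPM in any other library. The difference of liver to the next tissue, muscle, was 10.57 ± 0.45 on the log2 scale (edgeR adjusted p = 6.55e-63). CYP1B1 of the same family, known for hydroxylating estradiol outside liver, was instead highest in fat, with a mean of 9.90 CPM, against 2.43 CPM in muscle and 2.40 CPM in liver. The fat libraries ranged from 0.52 to 24.6 CPM, and the difference to muscle was 1.93 ± 0.53 (edgeR adjusted p = 0.000944). CYP3A5, of the subfamily that handles the largest part of drugs in liver, ranged from 235 to 798 CPM there and reached at most 0.615 CPM elsewhere.

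Of the CYP4 genes, 4 of 6 were highest in liver. CYP4A11 and CYP4F2, both fatty acid omega-hydroxylases, had means of 272 and 114 CPM in liver. CYP4A11 did not exceed 1.29 CPM outside liver, and CYP4F2 reached 5.71 CPM in muscle. CYP4A22 was low even in liver, with a mean of 2.25 CPM. CYP4V2, a fatty acid hydroxylase known from an inherited disease of the retina, was present throughout, with means of 579 CPM in liver, 71.8 CPM in fat, 69.7 CPM in pituitary and 22.7 CPM in muscle. Fat and pituitary did not differ for it beyond their spread (0.00 ± 0.30). CYP4F3, a leukotriene hydroxylase of leukocytes, was highest in fat. Its fat libraries ranged from 1.68 CPM in bull 4 to 66.7 CPM in cow 4, with a log2 difference to liver of 3.08 ± 0.56 (edgeR adjusted p = 8.01e-07). The summed level of the 4 leukocyte markers was 90.1 to 439 CPM in fat and lowest in cow 4, and the part of leukocytes in the CYP4F3 level was not tested. CYP4B1 was called in no tissue, with means of 16.2 CPM in muscle, 14.2 CPM in fat, 9.13 CPM in pituitary and 1.93 CPM in liver.

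Of the 5 tested genes of steroid hormone synthesis, 2 were highest in liver and 1 each in fat, muscle and pituitary, none of which is a classical steroid-producing gland. CYP11A1, which cleaves the cholesterol side chain in the first step of this synthesis, was highest in liver. It ranged there from 2.74 CPM in the library labelled male liver 3 to 104 CPM in bull 1, with a median of 21.8, and its mean in pituitary, the next tissue, was 0.985 CPM. The log2 difference was 5.07 ± 0.52 (edgeR adjusted p = 3.01e-16). CYP21A2, the steroid 21-hydroxylase, was also highest in liver, at 1.64 to 13.4 CPM. Of the adrenal cortex markers, MC2R, the receptor for adrenocorticotropic hormone, had 0 reads in the 10 liver libraries. Its mean was at most 0.0871 CPM in any tissue, so nothing about its level in liver could be told at this depth. The summed level of the 5 markers found was 3.58 to 22.3 CPM in liver, mainly HSD3B1 with a mean of 12.9 CPM.

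The remaining steroid genes passed a tissue comparison only at levels near the floor. CYP17A1, the 17-alpha-hydroxylase, was called highest in fat at a mean of 0.815 CPM, from between 1 and 37 reads a library, with the 37 reads in bull 5. CYP11B1, the 11-beta-hydroxylase, was called highest in pituitary at a mean of 0.575 CPM, from between 2 and 26 reads a library. CYP19A1, the aromatase that makes estrogens from androgens, was called highest in muscle at a mean of 1.41 CPM. Neither CYP17A1 nor CYP11B1 met the detection rule in any tissue.

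**Figure D2:**
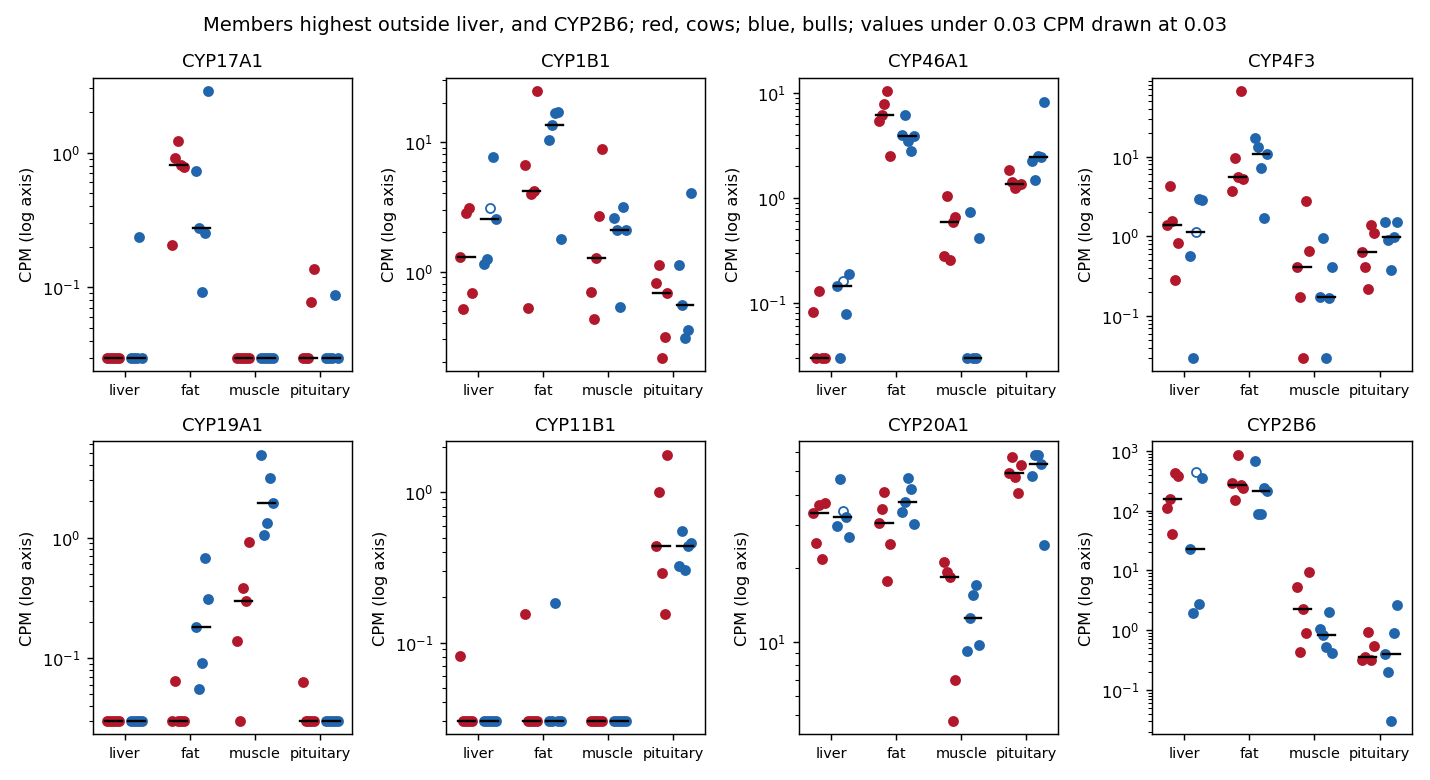
CPM on a log axis in each library by tissue, red for cows, blue for bulls, black bars for the median of a sex, an open circle for the library labelled male liver 3 and values under 0.03 CPM drawn at 0.03, for the 7 members called highest outside liver and for CYP2B6. CYP17A1, CYP11B1 and CYP19A1 stay below 5 CPM everywhere, whereas CYP2B6 in fat lies between 86.6 and 864 CPM.

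Members that handle vitamin D, retinoic acid and cholesterol products were spread over the tissues. CYP2R1, which makes 25-hydroxyvitamin D, was highest in liver with a mean of 13.5 CPM, followed by muscle with 6.95, fat with 3.27 and pituitary with 0.774 CPM, and each step in this order passed the test. The liver to muscle step was 0.97 ± 0.21 on the log2 scale, just under 2-fold (edgeR adjusted p = 1.44e-05). CYP27B1, which makes the active hormone, had means between 1.58 and 2.06 CPM and no 2 neighbouring tissues in this order differed beyond their spread. Of the retinoic acid hydroxylases, CYP26A1 was highest in liver at 0.161 to 26.8 CPM. CYP26B1 showed the other picture, with 16.0 CPM in pituitary, 11.5 CPM in fat, 11.3 CPM in muscle and 0.976 CPM in liver. The step from muscle to liver was 3.48 ± 0.45 (edgeR adjusted p = 1.7e-12), and the first 3 tissues did not differ beyond their spread.

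CYP39A1, which acts on 24-hydroxycholesterol, was highest in liver with a mean of 60.2 CPM and lowest in muscle with 1.72 CPM. CYP46A1, which makes 24-hydroxycholesterol and is best known from brain, was highest in fat with a mean of 5.25 CPM, followed by pituitary with 2.41 CPM, a log2 difference of 1.14 ± 0.37 (edgeR adjusted p = 0.00496). CYP20A1, an enzyme without a settled substrate, was highest in pituitary with 49.2 CPM, above fat with 34.1 CPM by 0.53 ± 0.20 on the log2 scale (edgeR adjusted p = 0.0152), a difference below 2-fold.

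Genes that work with P450 enzymes were read from lists. Of 8 electron donors found in the tables, 4 were highest in liver, 2 in fat and 2 in none. With library sizes alone the liver calls of CYB5A and PGRMC1 were lost (adjusted p = 0.289 and 0.672), and so was the muscle call of the regulator NR3C1 (0.691). POR, the reductase that serves the microsomal P450 enzymes, had a mean of 491 CPM in liver and 104 CPM in pituitary, the next tissue (log2 difference 2.24 ± 0.19, edgeR adjusted p = 1.47e-28). FDXR, the reductase of the mitochondrial enzymes, was called in no tissue, with means from 6.63 to 15.0 CPM. Of 10 genes of heme synthesis and breakdown, 3 were highest in liver and 7 in none. Among the 3 was ALAS2, at a mean of 1.49 CPM in liver. Its liver call was lost with the animal as a block (edgeR adjusted p = 0.0924 against muscle). ALAS1, the first enzyme of heme synthesis outside blood cells, was 288 CPM in liver and 234 CPM in muscle, which did not differ beyond their spread (0.29 ± 0.27).

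Of 16 regulators found, 8 were called highest in liver, with 2 in pituitary and 1 each in fat and muscle. NR1I2 and NR1I3, the receptors PXR and CAR that switch on CYP3A and CYP2B genes, had means of 99.2 and 124 CPM in liver. In fat, where CYP2B6 was high, NR1I3 was at 1.12 CPM and NR1I2 at 0.123 CPM. These are RNA levels, and the part of either receptor in the CYP2B6 level was not tested. AHR had means of 178 CPM in liver and 34.8 CPM in pituitary, the next tissue. NR5A1, the regulator of steroid-producing genes, had a mean of 62.9 CPM in pituitary, where it belongs to the gonadotropin-producing cells, and at most 0.406 CPM in any library of the other tissues. Between the sexes, no electron donor and no heme gene passed the test in any tissue, and of the regulators NR5A1 did, in pituitary, where it was higher in males (log2 fold change 0.77 ± 0.21, edgeR adjusted p = 0.0441, quasi-likelihood 0.242). Of the 6 pituitary endocrine markers CGA, the alpha subunit of the gonadotropins and thyrotropin, was also higher in males there (1.84 ± 0.44, adjusted p = 0.0125), and its part was not tested.

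In liver no member passed the test between the sexes when all 10 libraries were used, beside 0.175% of all genes. The quasi-likelihood test and DESeq2 also called 0 members, and 6 of 31 members had an unadjusted p under 0.05 in the likelihood ratio test, beside 7.45% of all genes. Without the library labelled male liver 3, 1 member passed, CYP2E1, beside 0.464% of all genes. In the quasi-likelihood test without that library 0 members passed, beside 0.0837% of all genes, and 5 of 31 had an unadjusted p under 0.05, beside 5.69%.

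CYP2E1 was lower in males when the library labelled male liver 3 was left out. In cows 1 to 5 its liver level was 7099.5, 6864, 7697, 4632.5 and 3009 CPM. In bulls 1, 2, 4 and 5 it was 248, 289.8, 654 and 1879.5 CPM, so each cow was above each of these 4 bulls. The library labelled male liver 3 had 4655 CPM, within the range of the cows. With all libraries the log2 fold change of males to females was -1.87 ± 0.63 (SE, n = 5 and 5, edgeR adjusted p = 0.291). Without that library it was -2.94 ± 0.51 (n = 5 and 4), with an adjusted p of 0.00023 in the likelihood ratio test and 0.0629 in the quasi-likelihood test. Reads on all members made up 0.538% to 1.05% of reads on genes in cows and 0.242% to 0.796% in the libraries labelled male, a share that holds CYP2E1 itself. Without CYP2E1 the shares overlapped, at 0.338% to 0.504% and 0.219% to 0.475%.

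**Figure D3:**
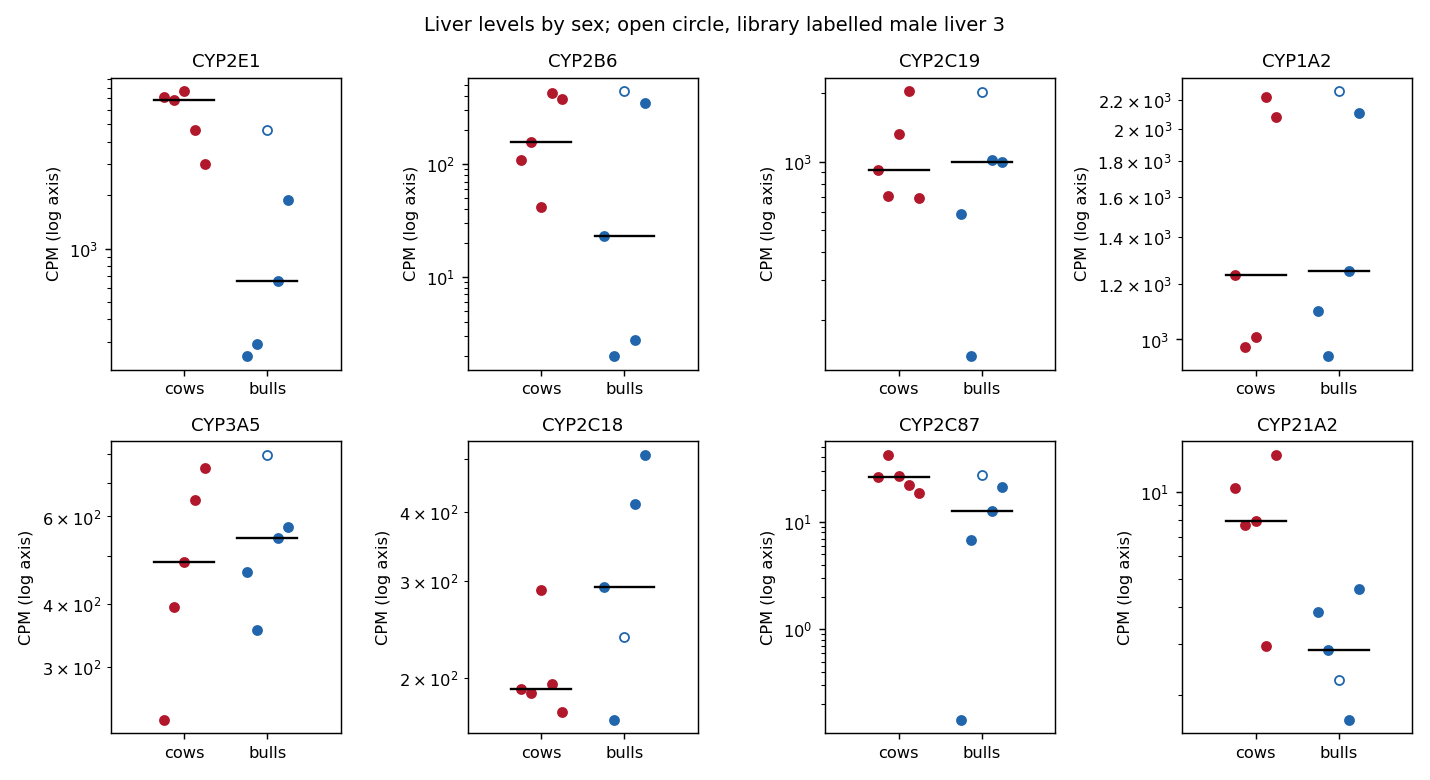
CPM on a log axis of 8 members in the 10 liver libraries, red for cows, blue for bulls, black bars for the median of the libraries so labelled, an open circle for the library labelled male liver 3. For CYP2E1 the 5 cows lie between 3009 and 7697 CPM and the 4 filled bulls between 248 and 1879.5 CPM.

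No other member passed in liver in either set of libraries. CYP21A2 was at 10.3, 7.66, 7.94, 2.95 and 13.4 CPM in cows 1 to 5 and at 3.86, 2.86, 2.26, 1.64 and 4.63 CPM in the libraries labelled male 1 to 5. Cow 4 alone fell among the males. The log2 fold change was -1.45 ± 0.42 (edgeR adjusted p = 0.144), and it passed only when cow 4 was left out, with an adjusted p of 0.00469, in a fit that called 1.42% of all genes. Without the library labelled male liver 3 it was -1.38 ± 0.45 (adjusted p = 0.233). CYP2C18 went the other way, with means of 207 CPM in cows and 324 CPM in the libraries labelled male and a log2 fold change of 0.65 ± 0.32 that did not pass (edgeR adjusted p = 0.639, and 0.73 ± 0.34 with 0.649 without the library labelled male liver 3). CYP4B1 (-1.64 ± 0.74) and CYP26A1 (-1.83 ± 0.88) had means of 2.95 and 11.1 CPM in cows against 0.917 and 2.96 CPM in the libraries labelled male, and neither passed. Without that library they were -2.12 ± 0.78 and -1.54 ± 0.85 and again did not pass (adjusted p = 0.39 and 0.861). For CYP1A2 and CYP3A5 the log2 fold changes were 0.04 ± 0.37 and 0.13 ± 0.36, and without that library -0.16 ± 0.37 and -0.07 ± 0.36, so their sign depended on it.

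**Figure D4:**
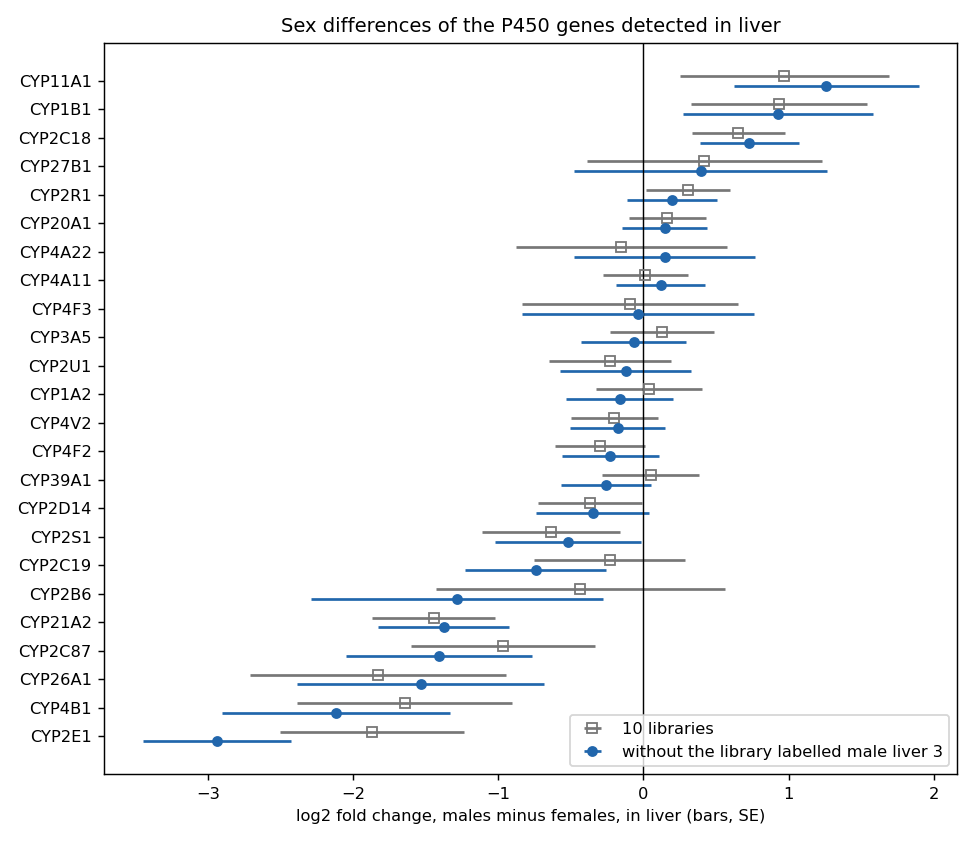
Log2 fold change of males against females in liver, with bars for the SE, of the 24 members detected there, as grey squares for all 10 libraries and as blue circles without the library labelled male liver 3. CYP2E1 moves from -1.87 to -2.94, and without that library it lies farthest from 0.

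Among the 9 genes of growth hormone signalling found in the tables, 1 passed between the sexes in liver with all libraries, CUX2, and 2 passed without the library labelled male liver 3, CUX2 and IGF1. CUX2, a transcription factor that responds to the pattern of growth hormone release in rodent liver, was at 13.2, 4.49, 7.68, 6.04 and 64.8 CPM in cows 1 to 5 and at 337, 266, 665 and 471 CPM in bulls 1, 2, 4 and 5, with 7.41 CPM in the library labelled male liver 3. Its adjusted p was 0.00502 with all libraries and 1.36e-06 without that library (edgeR likelihood ratio test), and 0.366 and 0.0252 in the quasi-likelihood test. The study reported CUX2 as higher in females in rat liver, the opposite direction to cattle. In the study's quantitative PCR of cattle liver, CUX2 did not differ significantly between the sexes. IGF1, the growth factor that liver makes under growth hormone, was at 7.83, 34.8, 7.94, 23.3 and 7.66 CPM in cows 1 to 5 and at 19, 64.1, 181 and 62.7 CPM in bulls 1, 2, 4 and 5, with 15.1 CPM in the library labelled male liver 3. The sexes overlapped. Its log2 fold change was 2.08 ± 0.59 with all libraries (edgeR adjusted p = 0.144) and 2.33 ± 0.56 without that library (0.0185, quasi-likelihood 0.228). Whether the CYP2E1 level is connected with either gene was not tested.

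Several liver members varied widely from animal to animal. The SD of log2(CPM + 1) over the 10 libraries was 2.76 for CYP2B6, 1.91 for CYP2E1 and 1.63 for CYP26A1, beside a median SD of 0.44 over the 9796 genes with a median of at least 1 CPM in liver. Only 2 of these genes had a larger SD than CYP2B6. Within the 5 cows the SD was 1.37 for CYP2B6, 1.71 for CYP26A1 and 0.57 for CYP2E1, and within bulls 1, 2, 4 and 5 it was 3.18, 1.29 and 1.34, so among cows CYP2E1 varied less than CYP2B6 and CYP26A1. In cows 1 to 5 CYP2B6 was at 109, 157, 41.4, 424 and 380.5 CPM. In bulls 1, 2, 4 and 5 it was at 23.2, 1.97, 2.73 and 347 CPM, and the library labelled male liver 3 had 444 CPM, a 225-fold range in all. The sexes overlapped and the log2 fold change was -0.44 ± 1.0 (edgeR adjusted p = 1), or -1.29 ± 1.01 (adjusted p = 1) without the library labelled male liver 3. CYP26A1 was at 16.3, 26.8 and 9.48 CPM in cows 1 to 3 and at 0.702 and 1.91 CPM in cows 4 and 5, while the libraries labelled male lay between 0.161 and 8.95 CPM.

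Narrower members were found in the same libraries. CYP20A1 had an SD of 0.30, CYP2R1 of 0.34 and CYP4A11 of 0.40 in liver, below the median of all genes. CYP2C87 was near absent in the liver of bull 1, with 0.143 CPM, beside 6.80 to 42.3 CPM in the other 9 libraries. In fat the widest member was CYP4B1 with an SD of 1.80, and in muscle also CYP4B1 with 1.65.

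In fat no member passed between the sexes, beside 0.114% of all genes. The quasi-likelihood test and DESeq2 called 0 as well, and 1 of 31 members, CYP19A1, had an unadjusted p under 0.05, beside 6.88% of all genes. CYP2B6 in fat was at 293.5, 154, 864, 269.9 and 243 CPM in cows and at 690.02, 86.6, 88.6, 239.98 and 215 CPM in bulls, with overlapping sexes (log2 fold change -0.49 ± 0.61). In pituitary no member passed either, beside 0.745% of all genes. Again the other tests called 0, and 3 of 31 members had an unadjusted p under 0.05, near the 9.27% of all genes that did. CYP46A1 was at 1.23 to 1.83 CPM in cows and at 1.46 to 8.22 CPM in bulls (1.23 ± 0.46, edgeR adjusted p = 0.249), and CYP26B1 at 4.36 to 17.4 CPM in cows and 13.1 to 41.7 CPM in bulls (0.94 ± 0.38, adjusted p = 0.346). Bull 5 gave the highest value of both genes. CYP2S1 had means of 2.97 CPM in cows and 1.62 CPM in bulls (-0.88 ± 0.41, adjusted p = 0.478).

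In muscle 1 member passed between the sexes, beside 0.517% of all genes. CYP19A1 was higher in bulls, with 0.138, 0, 0.381, 0.296 and 0.920 CPM in cows 1 to 5 and 4.86, 1.05, 1.32, 3.15 and 1.93 CPM in bulls 1 to 5. The sexes did not overlap, but the counts behind these values are small, with 1, 0, 3, 2 and 7 reads in the cows and 28, 10, 5, 19 and 14 reads in the bulls. The log2 fold change was 2.84 ± 0.72 (n = 5 and 5, edgeR adjusted p = 0.0233). The quasi-likelihood test gave 0.296 and DESeq2 0.0207, and leaving out cow 1, 2 or 3 or bull 1, 4 or 5 raised the adjusted p to between 0.0575 and 0.1002. In fat CYP19A1 had at most 1 read in a cow and 1 to 8 reads in the bulls, with an adjusted p of 0.307. In liver it had no read, and in pituitary 1 read in cow 1.

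Other members were high in muscle in 3 of the cows, and did not pass in the likelihood ratio test. CYP4V2 was at 65.7, 36.7 and 58.0 CPM in cows 1, 2 and 3, at 8.13 and 10.5 CPM in cows 4 and 5, and at 5.82 to 14.4 CPM in the 5 bulls. Its log2 fold change was -1.92 ± 0.52 (edgeR adjusted p = 0.0549, DESeq2 0.0405, quasi-likelihood 0.296). CYP4F2 was at 2.76, 2.59 and 5.71 CPM in the same 3 cows and at most 1.84 CPM in the 7 other animals (adjusted p = 0.0801). CYP2S1 was at 1.52, 2.25 and 8.25 CPM in them and at most 0.521 CPM in the others (adjusted p = 0.185). Without cow 4 all 3 of these genes passed, and CYP4V2 also passed without cow 5, but calls rose over all genes too, to 4.21% and 0.996%. The median log2 fold change of the 31 members in muscle was -0.34, beside -0.04 over all genes.

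The summed level of the 4 leukocyte markers in muscle was 104 to 139 CPM in cows 1 to 3 and 19.6 to 65.1 CPM in the 7 other animals, and its part in the differences was not tested. Reads outside annotated genes made up 53.3%, 42.3% and 48.1% of uniquely aligned reads in muscle in cows 1 to 3. In the 7 other animals they made up 35.8% to 44.4%, a range that held cow 2 but not cows 1 and 3. The part of this share in the differences was not tested either.

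Over all tissues, in the model of sex and tissue, 2 members passed between the sexes, beside 1.69% of all genes. CYP19A1 was higher in males (log2 fold change 2.54 ± 0.64, edgeR adjusted p = 0.00225) and CYP4V2 was lower in males (-0.82 ± 0.21, adjusted p = 0.0253). The quasi-likelihood test gave 0.0137 and 0.0642 and DESeq2 0.053 and 0.0311. That model takes the 4 libraries of an animal as independent. In limma-voom with the animal as a random block neither passed, beside 0.0608% of all genes, with adjusted p of 0.431 for CYP19A1 and 0.45 for CYP4V2. That fit changed the test as well as adding the block, so the loss of these calls cannot be laid to the block alone. Without the library labelled male liver 3 the likelihood ratio test still called CYP19A1 and CYP4V2 (adjusted p = 0.00222 and 0.0326), beside 1.34% of all genes, and CYP2E1 had -0.47 with an adjusted p of 0.648. In the blocked fit without the library labelled male liver 3, CYP2E1 was the 1 member that passed (-2.22 on the log2 scale, adjusted p = 0.0308), beside 0.0761% of all genes, so its call over all tissues depended on the model. This call does not show a sex difference in each tissue. Outside liver the means of CYP2E1 in cows and bulls were 0.851 and 1.42 CPM in fat, 1.13 and 0.903 CPM in muscle and 0.357 and 0.366 CPM in pituitary. For CYP4V2 the likelihood ratio call was lost without cow 1, 2 or 3 or bull 1, 2 or 4, with adjusted p of 0.0734 to 0.13. No member had a sex effect that differed between tissues, beside 0.335% of all genes, and the quasi-likelihood test and DESeq2 also called 0, while 4 of 31 members had an unadjusted p under 0.05, beside 8.58% of all genes. The lowest adjusted p was 0.221 for CYP46A1, which passed only without bull 2 (0.0399, beside 0.198% of all genes). For CYP2E1 the interaction had an adjusted p of 0.731, and 0.252 without the library labelled male liver 3, so its sex difference was not shown to be particular to liver.

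CYP4V2 was high in the same animals across tissues. Cows 1, 2 and 3 had the 3 highest values in each of the 4 tissues. In liver they were at 691, 709 and 939.7 CPM, against 352 to 607 CPM in the 7 other animals. In fat these cows were at 146, 81.0 and 119 CPM against 32.1 to 79.5 CPM, and in pituitary at 84.0, 83.0 and 127 CPM against 43.4 to 72.8 CPM. The mean Pearson correlation of log2(CPM + 1) between tissues over the 10 animals, averaged over 6 tissue pairs, was 0.69, beside a median of 0.16 over the 8718 genes with a median of at least 1 CPM in every tissue, 48 of which had a higher mean. On the same measure CYP20A1 had 0.49, CYP2D14 0.40, CYP2U1 0.33 and CYP39A1 0.03. The points share the animal and whatever set its libraries apart. Reads outside annotated genes made up 40.4% to 54.0% of uniquely aligned reads in liver in cows 1 to 3, beside 34.7% to 42.9% in the 7 other animals. In fat the shares were 39.4% to 46.9% beside 34.5% to 41.4%, and in pituitary 46.7% to 52.1% beside 33.2% to 46.9%. The ranges overlapped, and the part of this share in the CYP4V2 levels was not tested. Cows 1 to 3 were picked after their values were seen, so their grouping carries no test.

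CYP4B1, an enzyme that activates certain plant toxins and hydroxylates fatty acids, followed other animals. In muscle cows 2 and 3 were at 15.5 and 27.2 CPM and bulls 2 and 3 at 41.6 and 55.5 CPM, while the 6 other animals lay between 1.22 and 7.36 CPM. In fat cow 3 and bulls 2 and 3 were highest, at 44.1, 14.1 and 58.9 CPM, and cow 2 had 5.26 CPM, within the range of the 6 others of 0.669 to 9.66 CPM. The Pearson correlation between fat and muscle over the 10 animals was 0.80, beside -0.06 between fat and pituitary and -0.40 between muscle and pituitary. In liver cows 2 and 3 were again highest, at 6.43 and 6.02 CPM, from 63 and 47 reads, and bull 2 was not raised, at 0.716 CPM. In pituitary cow 3 was highest with 20.9 CPM, but bulls 2 and 3 had the 2 lowest values, 3.33 and 4.20 CPM. These animals were picked after their values were seen, so the groups carry no test.

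**Figure D5:**
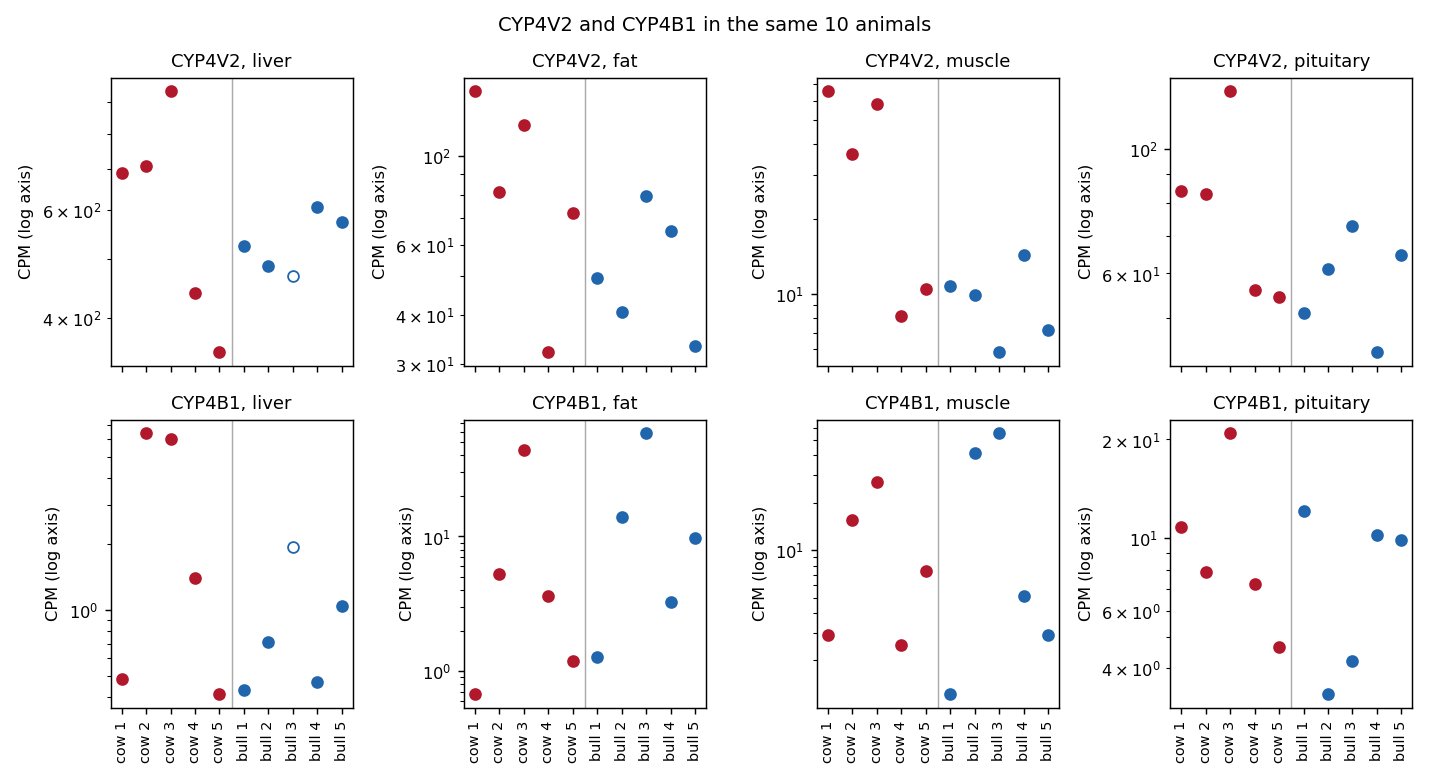
CPM on a log axis of CYP4V2 (upper row) and CYP4B1 (lower row) in the 4 tissues of each of the 10 animals, red for cows, blue for bulls, an open circle for the library labelled male liver 3. Cows 1 to 3 are highest for CYP4V2 in every panel, and cows 2 and 3 with bulls 2 and 3 are highest for CYP4B1 in muscle.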

How the data were processed

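RNA of 4 tissues of 10 Korean cattle was sequenced as paired-end poly-A libraries. Per the labels and methods, the authors used Trimmomatic for trimming, Tophat2 with Bowtie2 for alignment against bosTau7 (UCSC), and HTSeq for counting uniquely aligned reads in UCSC gene models. They deposited raw read counts per gene symbol, without normalization. The counting mode and strandedness are not given in the sources used here. A row without a gene name, 0.114% to 2.69% of reads, was left out. Between 33.2% and 54.0% of uniquely aligned reads lay outside genes.

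Genes without any read were left out and 13148 remained. They were fitted with edgeR 4.0.16 under R 4.3.3, using TMM factors, negative binomial models, likelihood ratio tests and Benjamini-Hochberg adjustment over all of them, at an adjusted p under 0.05 and a prior count of 0.125. The models, taken from the study's methods, were sex within a tissue and sex plus tissue over 40 samples. Sex by tissue terms and tissue contrasts were added. Alternatives were edgeR's quasi-likelihood test, DESeq2 1.42.0, other scalings and filters, each animal left out, and the animal as a block, fixed in edgeR or random in limma-voom (limma 3.58.1). The pairing comes from the animal identifiers in the labels, and the consensus correlation of libraries of 1 animal was 0.104. For the library labelled male liver 3 the pairing is in doubt. It had 0 reads on the 3 Y-linked genes, where the fat, muscle and pituitary libraries of bull 3 had 488, 331 and 1067. The edgeR fits of sex in liver (likelihood ratio and quasi-likelihood) and of liver against fat (likelihood ratio) were tested on simulated data. The other fits were not.

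Named members were those called between the sexes, those highest outside liver, the 3 with the smallest p between the sexes in a tissue, the 3 most variable in liver, the 2 with the highest CPM in each functional group and the 5 with the most reads in a tissue. The last part of this rule had asked for levels per transcript length. Transcript lengths were not used here, so reads took their place. Other members are named to complete their functional group. The members and the gene lists were chosen with earlier results of these data known. Chromosomes come from RefSeq, and no coordinates are given because its assembly is not the one of the alignment.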

Additional observations from a re-analysis of the deposited data

Results flagged for a closer look

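Within the 5 libraries of 1 sex and tissue, 1 library stood apart from the other 4 by Dixon's ratio (above 0.71) in 7 of the 115 groups tested, where chance gives about 1 in 20. The fat library of bull 5, which also had few Y-linked reads, was low for CYP1B1, at 1.78 CPM beside 10.3 to 16.9 CPM in the other bulls, and for CYP26B1, at 0.309 CPM beside 7.6 to 16.1 CPM. The pituitary library of bull 5 was low for CYP20A1, at 25.0 CPM beside 48.0 to 58.5 CPM, and high for CYP46A1, at 8.22 CPM beside 1.46 to 2.52 CPM. Among cow livers, CYP2C18 was high in cow 3, at 289 CPM beside 174 to 195 CPM, CYP2R1 in cow 4, at 17 CPM beside 10.5 to 11.7 CPM, and CYP4A22 in cow 2, at 7.04 CPM beside 0.842 to 1.64 CPM.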

How the results depend on the processing

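Counts of members called were set against 1 alternative at a time, except that the random block also changed the test to limma-voom. The fits without the library labelled male liver 3 that used the quasi-likelihood test or the random block were chosen after seeing the data. In muscle, where the likelihood ratio test called 1 member between the sexes, the quasi-likelihood test and the filter on low counts called 0, library sizes alone and DESeq2 called 2 each, and leaving out 1 library gave 0 to 4. In liver, leaving out 1 library gave 0 to 1 in place of 0. Over all tissues, where 2 were called, the quasi-likelihood test, the filter on low counts and DESeq2 called 1 each. Library sizes alone called 5 there (1 higher and 4 lower in males), and leaving out 1 animal gave 1 to 4. The limma-voom fit with the replicate block (animal) called 0, or 1 without the library labelled male liver 3. For the difference between tissues in the sex effect, leaving out 1 animal gave 0 to 1 in place of 0. The filter on low counts removed CYP19A1, the member highest in muscle, leaving 0, and CYP11B1, leaving 1 highest in pituitary, where requiring at least 2-fold also left 1. The other counts stayed within 1.5 times, including those with the replicate block for tissues. Without TMM factors the median log2 difference of all genes between tissues moved by 0.08 to 0.86, which bears on CYP2U1, CYP2B6, CYB5A, PGRMC1 and NR3C1. Of the 31 members, 4 changed sign in liver without the library labelled male liver 3 (CYP1A2, CYP39A1, CYP3A5 and CYP4A22). Over all tissues 5 changed sign in limma-voom with the replicate block (CYP11B1, CYP27B1, CYP39A1, CYP46A1 and CYP4B1). In both cases 0 of these were called in either fit. No paired analysis was possible within a tissue because each animal has 1 sex and gave 1 library there. Over all genes, the quasi-likelihood test called 1, 3, 7 and 12 between the sexes for liver, fat, muscle and pituitary in place of 23, 15, 68 and 98, 77 over all tissues in place of 222, and 0 interactions in place of 44 (922 at an unadjusted p under 0.05, DESeq2 44). DESeq2 called 30 in fat. Leaving out 1 library or animal gave 10 to 187 for liver, 5 to 22 for fat, 25 to 553 for muscle, 54 to 231 for pituitary, 57 to 714 over all tissues and 9 to 197 interactions. Library sizes alone gave 56 in pituitary (32 higher and 24 lower in males, against 73 and 25) and 717 over all tissues (37 higher and 680 lower, against 44 and 178). Depth limits the statements on CYP19A1, CYP17A1, CYP11B1, CYP24A1 and CYP3A4 the most.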
